A study of Oryctolagus cuniculus with 12 samples.

Results

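The aquaporins of the rabbit conjunctiva were examined before and after glaucoma filtration surgery. Aquaporins are membrane channels for water, and 7 of them formed the set described here, namely AQP1, AQP3, AQP4, AQP5, AQP7, AQP9, and AQP11. They were the rows of the gene table whose name equalled one of these symbols, 7 of 20566 genes. All 7 passed the filter on low counts, which kept 14835 genes in all. The RNA came from 12 conjunctival libraries of female Japanese white rabbits, 3 in each of 4 groups. The control libraries were made from left eyes that had no surgery. The other groups, TL3h, TL3d, and TL14d, held bleb conjunctiva of operated right eyes, taken 3 hours (TL3h), 3 days (TL3d), or 14 days (TL14d) after trabeculectomy. This operation opens a guarded path below a flap of sclera, through which aqueous humor collects in a subconjunctival bleb. The operated eyes also received mitomycin C (a DNA-crosslinking agent used against scarring), a conjunctival injection of betamethasone (a glucocorticoid), and an antibiotic ointment, so that these agents and the surgery cannot be told apart in any comparison with the control group. The rabbit and the time from which each control eye came are not given in the labels. The study describes its operated groups as 3 eyes each, and only right eyes were operated on, so these libraries came from separate rabbits. Nothing says the same of the control libraries, whose spread may be technical in part.

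Each aquaporin channel sits in the membrane as part of a tetramer, and water crosses it along the osmotic gradient that ion and solute transport set up. AQP1, AQP4, and AQP5 pass water with little else. AQP3, AQP7, and AQP9, the aquaglyceroporins, pass glycerol as well, and AQP11 belongs to a more distant branch found largely inside the cell. At the ocular surface AQP3 and AQP5 are known from the epithelium, AQP1 from vascular endothelium and stromal keratocytes, and AQP9 is known from liver and from white blood cells.

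The estimated counts of a library summed to between 27111348 and 38591425, and levels are given as CPM (counts scaled by library size) with library sizes adjusted by TMM, a scaling that assumes that most genes do not change. The TMM factors were 0.768 to 0.783 in TL3h and 1.03 to 1.13 in the other groups. Without this adjustment, the log2 fold change of the median gene at 3 hours moved from 0.02 to -0.47 and the share of calls that were higher than control from 51% to 25%. The floor of 3 counts, which is the upper limit for a gene listed at 0 (95% confidence), equalled 0.0712 to 0.124 CPM, and this covers counting error only. TL14d replicate 1 stood apart from its own group, with a mean correlation over genes of 0.883 with the other TL14d libraries and of 0.958 with the controls, so the tests at 14 days are also given without it. The epithelial markers that the table held were measured in every group, and MUC5AC, the main goblet cell mucin, is not listed in the table under that name. In bulk RNA, fewer cells of a type and less RNA per cell cannot be told apart.

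Per transcript length, 3 channels made up nearly all of the aquaporin RNA. In control conjunctiva the mean FPKM (fragments per kilobase of transcript, scaled by depth) was 349 for AQP3, 345 for AQP5, and 90.2 for AQP1. It was 8.26 for AQP4, 0.298 for AQP11, 0.036 for AQP7, and 0.0231 for AQP9. AQP3 and AQP5 did not differ beyond their spread in the controls, where the ratio of AQP3 to AQP5 was 0.912 to 1.32 on the FPKM scale. AQP7, AQP9, and AQP11 together held 0.0386% to 0.544% of the summed aquaporin FPKM in any library.

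**Figure D1:**
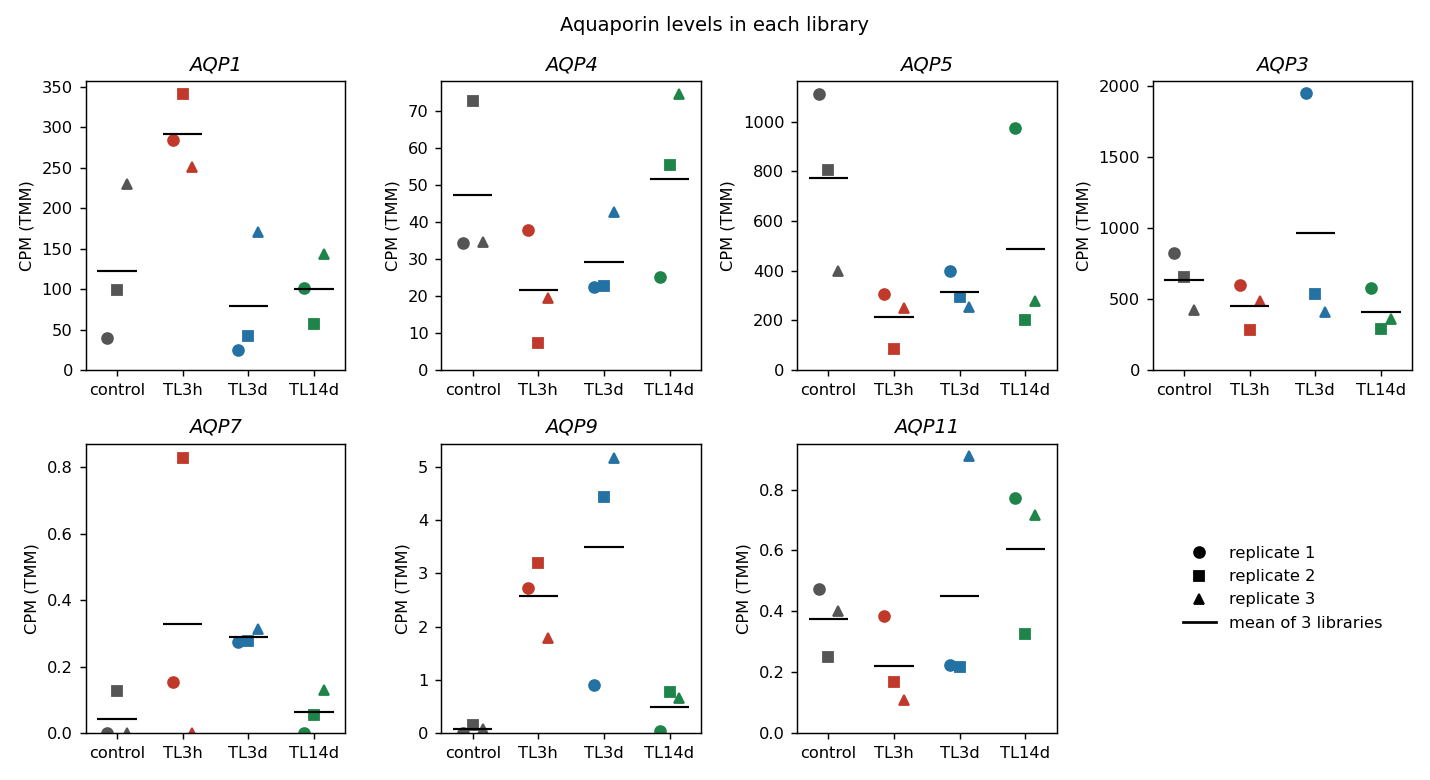
Level of each of the 7 aquaporins in each of the 12 libraries, in CPM with TMM-adjusted library sizes on a linear axis that starts at 0; each point is a library, its shape gives the replicate number, and the bar is the mean of 3 libraries. AQP9 was higher in all 3 TL3h and all 3 TL3d libraries than in the controls, and AQP5 was lower in all 3 TL3h libraries.

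The make-up of this pool differed at 3 hours. AQP5 held 30.1% to 50.4% of the summed FPKM in the controls and 8.26% to 19.9% in TL3h, without overlap. AQP1 held 3.05% to 29.2% in the controls and 31.1% to 56.9% in TL3h, also without overlap. The ratio of AQP5 to AQP1 FPKM was 1.03 to 16.5 in the controls and 0.145 to 0.639 in TL3h. These ratios are taken within a library and do not depend on the TMM scaling. With 3 libraries against 3, an exact permutation test cannot give a p below 0.1, so no test of them is given. AQP3 held 34.2% to 47.8% in TL3h and 39.6% to 45.9% in the controls, and its highest share, 84.2%, was that of TL3d replicate 1. The AQP5 share was 13.9% to 28.1% in TL3d, again below every control, and 27.9% to 52.2% in TL14d, within reach of the controls.

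**Figure D2:**
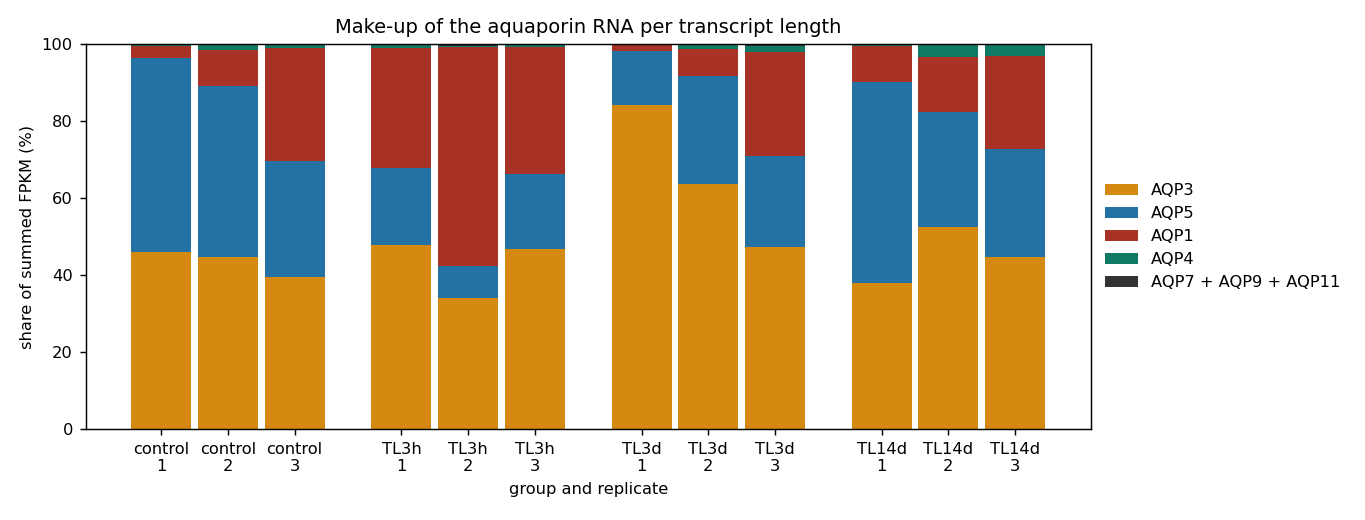
Share of the summed FPKM of the 7 aquaporins held by each channel, in percent, with 1 bar for each library; AQP7, AQP9, and AQP11 are drawn as 1 class. The AQP5 share was 30.1% to 50.4% in the controls and 8.26% to 19.9% in TL3h, and the AQP1 share in TL3h was at least 31.1%.

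AQP5, the water channel of corneal and glandular epithelium (gene 100008838, chr4:34128373-34132246 of OryCun2.0, plus strand), fell at 3 hours. Its levels were 1112, 806, and 400 CPM in the controls and 307, 83.9, and 252 CPM in TL3h, so that the highest TL3h library lay below the lowest control. Here and below, the share of all genes whose libraries separated in this way was not counted, so such separation is a description only. The means were 773 ± 357 and 214 ± 116 CPM (SD, n = 3 each), a 3.61-fold difference, and the log2 fold change was -1.85 with a standard error (SE) of 0.66 and an adjusted p of 0.0419 in the edgeR quasi-likelihood test. TL3h libraries were also the lower ones with library size only and on the FPKM scale. The adjusted p was close to the threshold of 0.05 and rose above it when any of 7 libraries was left out, with 0.131 without control replicate 1, 0.0863 without control replicate 2, 0.11 without TL3h replicate 2, 0.0776 without TL3h replicate 3, and 0.0531, 0.0586, and 0.0525 without TL3d replicates 1, 2, and 3. At 3 days AQP5 stood at 397, 293, and 253 CPM, with a log2 fold change of -1.30 (SE 0.65, adjusted p = 0.177). At 14 days it stood at 976, 202, and 279 CPM, where replicate 1 was within the range of the controls and the other 2 libraries were below it. The log2 fold change at 14 days was -0.67 (adjusted p = 0.74), and without TL14d replicate 1 it was -1.68 (adjusted p = 0.132).

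Epithelial and leukocyte markers moved differently beside AQP5. The summed level of the 11 epithelial markers in the table was 6404 to 12250 CPM in the controls and 6886 to 11490 CPM in TL3h, and 4 of the 11 rose and 1 fell at 3 hours, when 23.2% of all 14835 genes tested rose and 22.2% fell. The 4 were CLDN4, KRT18, CLDN7, and EPCAM. This sum held opposite moves, with mean CLDN4 going from 347 to 2269 CPM. Mean KRT15 went from 2220 to 671 CPM and KRT4 from 3128 to 1879 CPM, neither of them called (adjusted p = 0.0835 and 0.291). With a library left out, 2 to 5 of the 11 rose, with 2 without control replicate 1, control replicate 2, TL3h replicate 1, or TL3h replicate 3, and with library size only 2 rose and 3 fell. The 1 that fell was PAX6, the transcription factor of eye and ocular surface epithelium, with a log2 fold change of -1.70 (SE 0.41, adjusted p = 0.00693). FCGBP, a mucus protein and 1 of 4 goblet cell markers tested, fell with a log2 fold change of -2.20 (adjusted p = 0.0162), a call lost without control replicate 2 and without TL3h replicate 3. Of the other goblet cell markers, AGR2 had a log2 fold change of 1.92 (adjusted p = 0.0931), SPDEF of -0.12 (adjusted p = 0.902), and FOXA3 of -1.19 (adjusted p = 0.265). The goblet cell sum was 704 to 1741 CPM in the controls and 237 to 1130 CPM in TL3h, and without FCGBP it was 62.3 to 233 and 141 to 682 CPM. Over the 12 libraries, log2 AQP5 had a Pearson r of 0.33 with the epithelial sum and of -0.89 with the sum of neutrophil markers (-0.84 without MMP9), a description over libraries that share their scaling. The lacrimal acinar sum (3 of 7 listed markers in the table) was 0.404 to 1.41 CPM in the controls and 8.34 to 136 CPM in TL3h, and its r with AQP5 was -0.59. Its 1 tested marker, LTF, the lactoferrin of tears and of neutrophil granules, rose at 3 hours (log2 fold change 5.81, SE 1.26, adjusted p = 0.00407). LTF made up nearly all of the lacrimal sum, with means of 0.961 and 54.0 CPM in the controls and TL3h. BPIFA1 and LPO were at 0 in every control library, and LPO was at 0 in every TL3h library. The sum of 6 ciliary and iris epithelium markers overlapped, at 24.7 to 69.6 CPM in the controls and 37.6 to 75.8 CPM in TL3h, and 0 of the 6 passed at 3 hours. The part of these cells in the AQP5 result was not tested.

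AQP2, the vasopressin-regulated water channel of the kidney and no member of the set, was the gene whose pattern was most like that of AQP5, with an r of 0.976 over the 12 libraries. It lies 3172 bases upstream of AQP5 on the same strand. Its level was 22.1, 19.6, and 8.53 CPM in the controls and 6.61, 1.66, and 4.10 CPM at 3 hours, a log2 fold change of -2.02 (SE 0.60, adjusted p = 0.0189). The estimated count of AQP2 was 1.63% to 2.87% of that of AQP5 in every library. How the counting treated reads that fit more than 1 place is not given in the sources used here, and the estimated count of AQP5 was a fraction in 66.7% of the libraries and that of AQP2 in 58.3%. Whether these neighbouring paralogs shared reads was not tested. AQP6, the next gene downstream at a distance of 5190 bases, had 0 counts in the 3 controls and 5, 1, and 2 in TL3h. These were too few to be tested or to show whether it shared the pattern (r = -0.11).

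**Figure D3:**
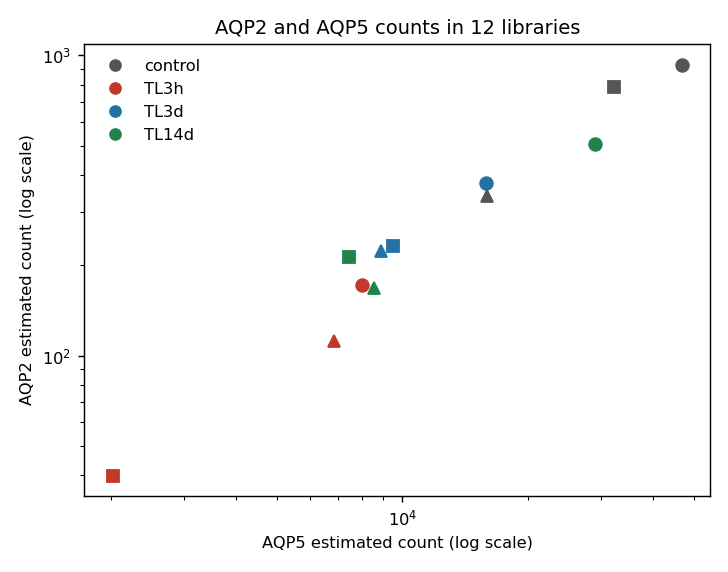
Estimated count of AQP2 against that of AQP5 in the 12 libraries, both axes on a log scale, coloured by group with shapes for the replicate number as in the plot of levels. AQP2 followed AQP5 at 1.63% to 2.87% of its count across all 4 groups.

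AQP1, the channel of endothelium and keratocytes (gene 100008839, chr10:15211381-15221822, plus strand), was high in all TL3h libraries and varied widely elsewhere. Its levels were 39.9, 99.4, and 229.5 CPM in the controls and 284, 342, and 251 CPM in TL3h. They were 25.4, 42.9, and 170.4 CPM in TL3d and 102, 57.1, and 144 CPM in TL14d. The TL3h libraries lay above every control with TMM scaling, but they overlapped the controls with library size only, at 196 to 262 against 45.1 to 237 CPM, and on the FPKM scale, at 138 to 180 against 30.3 to 164. The log2 fold change at 3 hours was 1.25 (SE 0.74, 95% interval -0.41 to 2.91, adjusted p = 0.2), which did not pass the test. From 3 hours to 3 days all 3 libraries were lower on each of the 3 scales, with a log2 fold change of -1.88 (SE 0.76) and an adjusted p of 0.0757. That change passed the threshold with limma-trend (adjusted p = 0.0286), with the DESeq2 Wald test (adjusted p = 0.0262), and without TL3d replicate 3 (adjusted p = 0.0108).

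The wide spread of AQP1 within the groups went with that of the stroma. The summed level of 8 fibroblast and keratocyte markers (collagens, DCN, LUM, KERA, and others) was 12340 to 77460 CPM in the controls, 105900 to 127600 in TL3h, 1362 to 65080 in TL3d, and 11120 to 57630 in TL14d, and its r with AQP1 was 0.954 over the 12 libraries. None of the 8 markers passed the edgeR test against the controls at any of the 3 times, nor at 14 days without TL14d replicate 1. Endothelial markers summed to 70.4 to 308 CPM in the controls and to 646 to 1274 CPM in TL3h, with 2 of 8 rising beside 23.2% of all genes, and their r with AQP1 was 0.691. The 2 that rose were PECAM1 (means of 55.8 and 716 CPM in the controls and TL3h) and CDH5 (14.9 and 82.0 CPM). PECAM1 thus made up most of the mean TL3h sum. The other 6 endothelial markers did not pass, and KDR and TEK had log2 fold changes of -0.82 and -0.35. With a library left out, 1 to 3 of the 8 rose. AQP1 is also a channel of red blood cells, and the erythroid sum (5 of 7 listed markers in the table) was 0.0712 to 5.92 CPM in the controls, 12.1 to 103 in TL3h, 2.96 to 4.30 in TL3d, and 0.489 to 3.42 in TL14d, without overlap between TL3h and the controls. Its r with AQP1 was 0.702. ALAS2, the heme synthesis enzyme of red cell precursors and the 1 erythroid marker tested, rose at 3 hours (log2 fold change 4.29, SE 1.47, adjusted p = 0.0361), a call lost without control replicate 1, control replicate 2, TL3h replicate 2, or TL3d replicate 2, in the 6 libraries compared, and with the DESeq2 Wald test. Without a filter on low counts, 3 of 5 erythroid markers rose. The adipocyte sum had an r of 0.923 with AQP1, and 0 of 4 adipocyte markers tested rose at 3 hours while 1 fell at 3 days, when 17.6% of all genes passed in either direction, and that call was lost without TL3d replicate 1 or 2. The part of these cells in the AQP1 levels was not tested. The genes most like AQP1 were TIMP2, an inhibitor of matrix metalloproteinases (r = 0.989), PCOLCE, which aids procollagen processing (r = 0.985), and SHOX2, a homeobox transcription factor (r = 0.974).

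**Figure D4:**
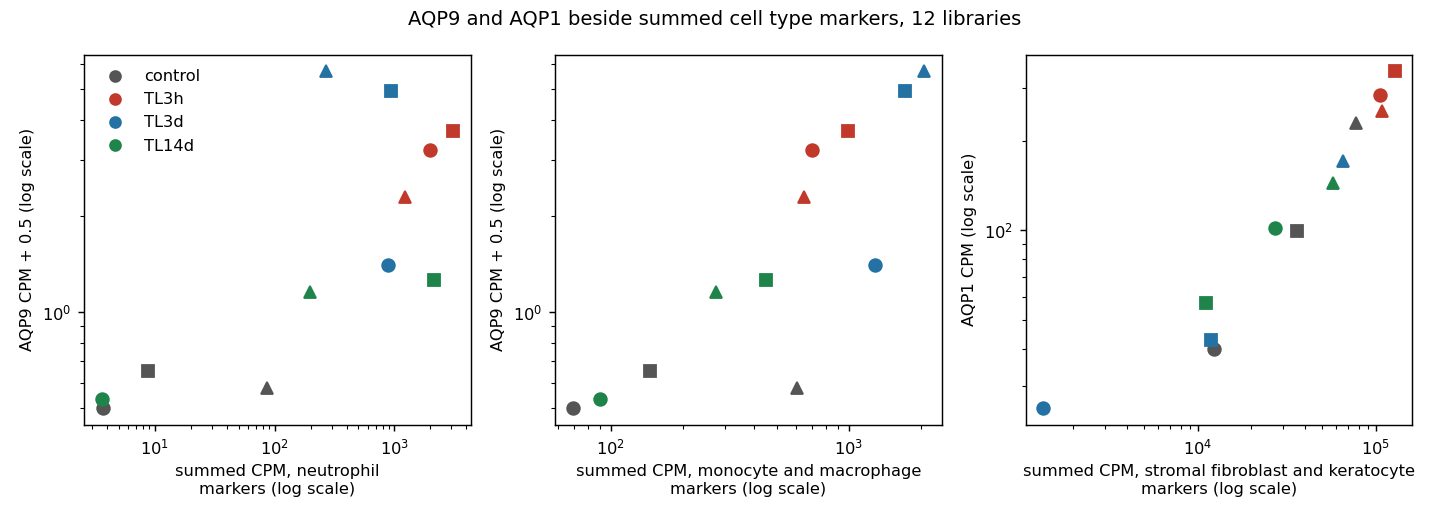
AQP9 level plus a pseudocount of 0.5 against summed neutrophil markers (left) and summed monocyte and macrophage markers (middle), and AQP1 level against summed fibroblast and keratocyte markers (right), all in CPM on log axes, for 12 libraries coloured by group with shapes for the replicate number. AQP1 was higher where the stromal sum was higher across all 4 groups (r = 0.954), and AQP9 had an r of 0.759 and 0.841 with the leukocyte sums.

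AQP4, the water channel that the dystrophin complex anchors in glia and muscle (gene 100008646, chr9:68087306-68100438, minus strand), did not pass the test in any comparison. It stood at 34.4, 72.6, and 34.5 CPM in the controls and at 37.7, 7.30, and 19.5 CPM in TL3h, where 1 library reached the controls. The log2 fold change at 3 hours was -1.13 (SE 0.59, 95% interval -2.45 to 0.19, adjusted p = 0.149). It passed the threshold with library size only (-1.64, adjusted p = 0.0419) and without TL3h replicate 1 (-1.86, adjusted p = 0.0395). At 3 days the levels were 22.6, 22.6, and 42.7 CPM, and at 14 days 25.1, 55.3, and 74.7 CPM, both overlapping the controls. AQP4 had an r of 0.792 with the goblet cell sum (-0.13 without FCGBP), of 0.304 with the skeletal muscle sum, and of -0.639 with the sum of glial markers. Glial markers rose in 2 of 4 tested at 3 hours and in 1 at 3 days, beside 23.2% and 10.6% of all genes, in 1 to 2 and 0 to 1 with a library left out, and in 0 at 3 hours with library size only. The 2 at 3 hours were GLUL and SLC1A2, and the 1 at 3 days was SLC1A2. The control mean of SLC1A2, 0.0576 CPM, was under the floor. GLUL, with means of 513 and 1152 CPM in the controls and TL3h, made up nearly all of the glial sum in both groups. GFAP and SLC1A3 did not pass at 3 hours or 3 days, and GFAP had log2 fold changes of -0.09 and -2.53. At the same times 0 of 3 skeletal muscle markers tested passed the test. Muscle RNA was uneven, with sums of 307 CPM in control replicate 2 and 323 CPM in TL3d replicate 3 and 1.95 to 12.2 CPM in the other libraries. These 2 libraries also held the highest AQP4 level of their groups, and the part of muscle in it was not tested.

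AQP9, an aquaglyceroporin of liver and white blood cells (gene 100338516, chr17:14198483-14240529, minus strand), rose at 3 hours and at 3 days. Its estimated counts were 0, 6, and 3 in the controls, 71, 77, and 49 in TL3h, 36, 144, and 182 in TL3d, and 1, 28, and 20 in TL14d. All TL3h and TL3d libraries lay above all controls, on the FPKM scale and with library size only as well, and 2 of the 3 controls were at or under the floor of 3 counts. In TL3h the mean was 2.57 ± 0.71 CPM against 0.0751 ± 0.075 in the controls (SD, n = 3 each), a 34.2-fold difference with a log2 fold change of 5.04 (SE 1.18, adjusted p = 0.00599). In TL3d the mean was 3.50 ± 2.29 CPM, 46.7-fold above the controls, with a log2 fold change of 5.49 (SE 1.19, adjusted p = 0.0179). The size of both rises rested on few control counts: without control replicate 1 the log2 fold changes were 4.46 and 4.91, and without control replicate 2 they were 5.98 and 6.43. With limma-trend, which adds a pseudocount of 0.5 CPM to control levels that were lower than this, they were 2.40 and 2.57. The rise at 3 hours passed the threshold in 19 of 19 alternatives, with adjusted p from 9.79e-06 to 0.0212. The rise at 3 days passed in 16 of 19 and was lost without control replicate 1 (adjusted p = 0.0575), without control replicate 2 (0.0555), and without TL3d replicate 2 (0.0594).

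At 14 days AQP9 was lower again in all libraries than in any TL3d library. Its log2 fold change against the controls was 2.64 (SE 1.13, unadjusted p = 0.0406, adjusted p = 0.468), and without TL14d replicate 1, where AQP9 had 1 count, the adjusted p was 0.0976. Against TL3d the log2 fold change was -2.84 (SE 1.02, adjusted p = 0.144, or 0.032 with DESeq2), and without TL14d replicate 1 it was -2.30 (adjusted p = 0.256). The levels at 3 hours and 3 days did not separate (log2 fold change 0.45, 95% interval -1.64 to 2.53, adjusted p = 0.737).

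Neutrophil markers rose beside AQP9. At 3 hours, 8 of 8 tested rose beside 23.2% of all genes (5 without control replicate 2), and their sum went from 3.66 to 87.0 CPM in the controls to 1237 to 3117 CPM. At 3 days 2 of the 8 rose, S100A12 and MMP9, beside 10.6% of all genes, and each of these calls was lost in 10 of the 12 fits with a library left out. The sum was then 268 to 940 CPM. Monocyte and macrophage markers rose in 2 of 6 at 3 hours, beside 23.2% of all genes (1 without control replicate 2 and 4 without control replicate 3), and in 4 of 6 at 3 days beside 10.6%, with sums of 69.1 to 604, 648 to 987, and 1287 to 2067 CPM in the controls, TL3h, and TL3d. At 3 days only CD68 of the 6 rose when control replicate 1 or 2 or TL3d replicate 1 or 2 was left out. At 14 days 1 marker of each list (MMP9 and MSR1) rose without TL14d replicate 1, and 0 with it. No neutrophil or macrophage marker in the table was at 0 in every library of any group. AQP9 had an r of 0.759 with the neutrophil sum and of 0.841 with the macrophage sum over the 12 libraries. Its r was 0.743 with the endothelial sum, 0.588 with the erythroid sum, and 0.536 with the lacrimal acinar sum. The endothelial sum also lay above every control in TL3h, where it was mostly PECAM1, and the lacrimal acinar sum was nearly all LTF. In TL14d replicate 2 the neutrophil sum was 2146 CPM, of which 1992 CPM was MMP9, a metalloproteinase that other cells make as well, and the sum of the other markers was 154 CPM. Without MMP9 the neutrophil sums were 3.51 to 84.9 CPM in the controls and 1198 to 3029 CPM in TL3h, and the r with AQP9 was 0.778. The genes most like AQP9 were GPR183, an oxysterol receptor of immune cells (r = 0.941), PLXNC1, a semaphorin receptor (r = 0.94), and ARHGAP15, a GTPase-activating protein (r = 0.931). The part of infiltrating cells in the AQP9 result was not tested.

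**Figure D5:**
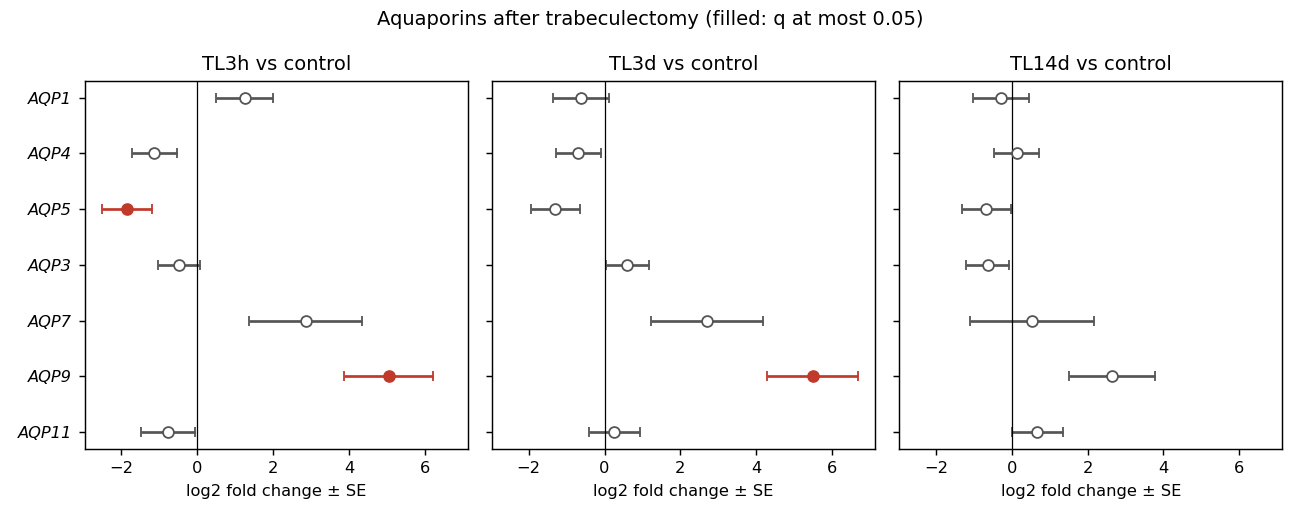
Log2 fold change of each aquaporin against the controls in TL3h, TL3d, and TL14d; points are estimates of the edgeR fit, bars are ± 1 SE, and filled points had an adjusted p of at most 0.05. AQP9 at 3 hours and 3 days and AQP5 at 3 hours passed, and no aquaporin passed at 14 days.

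AQP3, which carries water, glycerol, and hydrogen peroxide through epithelial membranes (gene 100344959, chr1:20023454-20029209, plus strand), was the most abundant aquaporin by mean FPKM in each of the 4 groups. It stood at 822, 660, and 427 CPM in the controls and at 598, 281, and 487 CPM in TL3h, which overlapped. The log2 fold change at 3 hours was -0.48 (95% interval -1.73 to 0.77, adjusted p = 0.52). In TL3d replicate 1 AQP3 reached 1952 CPM, while the other TL3d libraries held 539 and 412 CPM, and the log2 fold change at 3 days was 0.61 (95% interval -0.65 to 1.86, adjusted p = 0.465). Its sign at 3 days was the opposite in 1 of the 19 alternatives. At 14 days it was 575, 289, and 363 CPM, with a log2 fold change of -0.64 (adjusted p = 0.719). The genes most like AQP3 were LOC100344012, annotated as HRAS-like suppressor 2 (r = 0.891), MTERF1 (r = 0.863), and PSPH, the last enzyme of serine synthesis (r = 0.862).

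AQP7, the glycerol channel of fat cells (gene 100350611, chr1:20067205-20078802, plus strand), lies 37995 bases from AQP3 and was near the detection limit. Its counts were 0, 5, and 0 in the controls, 4, 20, and 0 in TL3h, 11, 9, and 11 in TL3d, and 0, 2, and 4 in TL14d. The 3 TL3d libraries were above every control, and the TL3h value rested on replicate 2. The log2 fold change was 2.86 (SE 1.49, adjusted p = 0.145) at 3 hours and 2.70 (SE 1.47, adjusted p = 0.21) at 3 days, with 95% intervals of -0.45 to 6.17 and -0.57 to 5.97. Both sizes rested on the 5 counts of control replicate 2, without which the log2 fold changes were 6.44 (adjusted p = 0.0596) and 6.27 (adjusted p = 0.126), and without TL3h replicate 2 the value at 3 hours was 0.49 (adjusted p = 0.755). The neighbours AQP3 and AQP7 had an r of -0.14, but the AQP7 counts were too low to show whether they shared a pattern. No gene reached an r of 0.9 with AQP7, and the nearest were DDX55 (r = 0.861), TRDMT1 (r = 0.858), and P2RY8 (r = 0.858).

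AQP11, the intracellular aquaporin (gene 100351558, chr1:139112007-139126763, minus strand), was also rare. Its counts were 20, 10, and 16 in the controls and 10, 4, and 3 in TL3h. They were 9, 7, and 32 in TL3d and 23, 12, and 22 in TL14d. On the CPM scale all groups overlapped the controls, with log2 fold changes of -0.76 (SE 0.71, adjusted p = 0.417), 0.26 (SE 0.67, adjusted p = 0.81), and 0.68 (SE 0.67, adjusted p = 0.75) in TL3h, TL3d, and TL14d. Without TL3d replicate 3, which held the 32 counts, the log2 fold change at 3 days was -0.76 (adjusted p = 0.423). The nearest genes were DXO (r = 0.86), BCL2L12 (r = 0.84), and MPV17 (r = 0.829). The 95% interval of the log2 fold change at 3 hours was -2.34 to 0.82.

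Over the set, 1 of 7 aquaporins rose and 1 fell at 3 hours, beside 23.2% of all genes that rose and 22.2% that fell, 45.4% together. At 3 days 1 of 7 passed, and it rose, beside 17.6% of all genes that passed in either direction and 10.6% that rose. At 3 hours neither share of members was above that of all genes. The share of all genes at 3 days rested on single libraries, since it was 3.25%, 2.46%, 2.97%, and 2.37% without control replicate 1, control replicate 2, TL3d replicate 1, and TL3d replicate 2, and AQP9 passed in 1 of these 4 fits, the one without TL3d replicate 1. At 14 days 0 of 7 passed, as did 0% of all genes by edgeR, with 1538 genes and 1 aquaporin (AQP9) at an unadjusted p under 0.05, while DESeq2 called 367 genes and no aquaporin. Without TL14d replicate 1, 716 genes (4.74% of those tested) and 0 aquaporins passed, and the log2 fold changes of AQP1, AQP3, AQP4, AQP7, and AQP11 were -0.29, -0.96, 0.46, 1.07, and 0.46 (adjusted p from 0.41 to 0.877). Between 3 hours and 3 days 0 of 7 passed beside 37.3% of all genes, and between 3 days and 14 days 0 of 7 beside 2.24% (0.443% without TL14d replicate 1, with 0 of 7 again). The median log2 fold change of the 7 members was -0.48 at 3 hours, 0.26 at 3 days, and 0.13 at 14 days, beside 0.02, 0.00, and 0.02 for all genes. With a library left out the median of the members was -0.78 to -0.26 at 3 hours, -0.76 to 0.59 at 3 days, and -0.39 to 0.46 at 14 days, and it was negative at 3 days without TL3d replicate 1 or 3 and at 14 days without control replicate 1, control replicate 3, or TL14d replicate 3. No aquaporin changed direction at 3 hours in any alternative. All 3 comparisons with the control group share the same 3 control libraries.

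Of the 9 annotated transcripts of the 7 genes, 1 passed the test at 3 hours, beside 28.3% of all 26082 transcripts tested, and 1 at 3 days, beside 5.13%. Both calls were of the AQP9 transcript, with an adjusted p of 0.0168 and 0.0455, and without the filter on low counts the call at 3 days was lost. At 14 days 0 of the 9 passed, also without TL14d replicate 1. The single AQP5 transcript had a log2 fold change of -1.90 at 3 hours with an adjusted p of 0.0556, just short of the threshold when adjusted over transcripts. AQP3 and AQP4 have 2 transcripts each. The minor one held 0.554% to 2.78% of the AQP3 count in all libraries, and 9.48% to 43.1% of the AQP4 count, with medians of 22.7%, 18.8%, 20.2%, and 23.5% in the controls, TL3h, TL3d, and TL14d. Both AQP4 transcripts had lower means at 3 hours, with log2 fold changes of -1.19 and -1.16, and neither passed the test (adjusted p = 0.142 and 0.416).

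Of 9 tested genes that handle glycerol, the second cargo of AQP3, AQP7, and AQP9, 3 rose and 0 fell at 3 hours, beside 23.2% and 22.2% of all genes, with a median log2 fold change of 0.37 beside 0.02. DGAT2, which makes triglyceride, rose from 8.48 to 270.4 CPM (means of 3 libraries, SD 4.10 and 104, adjusted p = 0.000429). MGLL, which frees glycerol from monoglycerides, rose by 1.91 (adjusted p = 0.00337) and the lipid droplet coat PLIN2 by 1.75 (adjusted p = 0.000619) on the log2 scale. At 3 days PLIN2 was still higher (1.76, adjusted p = 0.00971), and GPD1, which links glycerol phosphate to glycolysis, had fallen (-2.19, adjusted p = 0.0172), which made 2 of 9 called beside 17.6% of all genes. GK, the glycerol kinase, had a log2 fold change of 0.39 at 3 hours and 0.77 at 3 days (adjusted p = 0.436 and 0.165).

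Of 15 osmotic response genes tested, 8 rose and 2 fell at 3 hours, beside 23.2% and 22.2% of all genes, with a median log2 fold change of 0.93 beside 0.02. The kinase SGK1, a salt-regulated and glucocorticoid-induced gene, rose by 3.23 (adjusted p = 0.000612), and the volume-regulated anion channel subunits LRRC8C and LRRC8A rose by 2.54 (adjusted p = 0.000742) and 2.27 (adjusted p = 0.000485). The taurine transporter SLC6A6 fell at 3 hours (-1.77, adjusted p = 0.00168) and at 3 days (-1.74, adjusted p = 0.0134), and the channel subunit LRRC8E fell at 3 hours (-1.02, adjusted p = 0.038). At 3 days 2 rose and 1 fell of 15, beside 17.6% of all genes in either direction. The risers were AKR1B1, the aldose reductase that makes sorbitol (2.09, adjusted p = 0.00695), and the chaperone HSPA4L (1.37, adjusted p = 0.0403).

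Among 15 genes that anchor or traffic aquaporins, 1 rose and 5 fell at 3 hours, beside 23.2% of all genes that rose and 22.2% that fell. Together they were close to the 45.4% of all genes that passed. The median log2 fold change was -0.54 beside 0.02. CAV1, the caveolae protein, rose by 1.33 (adjusted p = 0.00546). AGRN, the basement membrane proteoglycan agrin, fell (-1.67, adjusted p = 0.00984), as did DTNB of the dystrophin complex (-1.64, adjusted p = 9.48e-05) and the recycling endosome protein RAB11FIP2 (-1.11, adjusted p = 0.00157). At 3 days 0 rose and 3 of 15 fell, beside 17.6% of all genes called in either direction, namely DMD (dystrophin, -1.09, adjusted p = 0.0361), UTRN (utrophin, -1.07, adjusted p = 0.0169), and RAB11FIP2 (-0.84, adjusted p = 0.0237).

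Of 9 genes that make or clear hydrogen peroxide, which AQP3 can pass, 2 rose and 0 fell at 3 hours with a list median of 0.59, beside 23.2% and 22.2% of all genes. These were the oxidase NOX1 (3.80, SE 1.04, adjusted p = 0.0134, from a mean of 0.0581 to 0.851 CPM) and the peroxidase GPX1 (0.80, adjusted p = 0.0047). At 3 days PRDX6 fell (-1.10, adjusted p = 0.0446) and 0 rose, 1 of 9 called beside 17.6% of all genes. Of 13 ion transport genes tested, 2 rose and 1 fell at 3 hours, beside 23.2% of all genes that rose and 22.2% that fell. Together they were fewer than the 45.4% of all genes that passed, with a list median of -0.44. The potassium channel KCNN4 was among those that rose (2.95, adjusted p = 3e-04), and the gene that fell was the bicarbonate cotransporter SLC4A4 (-1.30, adjusted p = 0.0271). At 3 days SLC4A4 was lower (-1.79, adjusted p = 0.0223) and the carbonic anhydrase CA2 higher (3.97, SE 1.22, adjusted p = 0.0489), 2 of 13 called beside the same 17.6%. CFTR, the chloride channel, had a log2 fold change of 0.00 at 3 hours (adjusted p = 0.999).

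The counts of these lists at 3 hours moved with the scaling. With library size only, 3 glycerol genes rose and 4 fell, 6 osmotic genes rose and 3 fell, 1 anchoring gene rose and 11 fell, 1 peroxide gene rose and 2 fell, and 1 ion transport gene rose and 4 fell, beside 12.7% of all genes that rose and 38.2% that fell. The peroxide list had 3 higher and 2 lower without control replicate 3, and 1 lower without TL3h replicate 1 (DUOX2) and without TL14d replicate 1 (PRDX6). The ion transport list had 1 to 3 higher and 0 to 1 lower with a library left out.

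The calls of these lists at 3 days often rested on single libraries. Of the genes named from the 5 lists at 3 days, PLIN2 and AKR1B1 passed with any library left out. The others (GPD1, HSPA4L, SLC6A6, DMD, UTRN, RAB11FIP2, PRDX6, CA2, and SLC4A4) were each lost without TL3d replicate 1 and without TL3d replicate 2, and all but SLC6A6 also without control replicate 2. HSPA4L, CA2, and PRDX6 passed in only 3, 3, and 4 of the 12 fits with a library left out. Other fits gained calls at 3 days. Of the osmotic genes 5 rose without TL14d replicate 1 and 6 in the 6 libraries compared, against 2, and the anchoring, ion transport, peroxide, and glycerol lists reached 5, 4, 2, and 3 called genes with a library left out, against 3, 2, 1, and 2. In the 6 libraries compared 12.7% of all genes rose, against 10.6% in the main fit. The share of all genes called also moved between the fits with a library left out. Of those named at 3 hours, LRRC8E was lost in 6, SLC4A4 in 4, and NOX1 in 3 of 12 such fits, and all 3 were lost without control replicate 1 and without control replicate 2. At 14 days no gene of the 5 lists passed in the edgeR fit of all 12 libraries, which called 0% of all genes. Without TL14d replicate 1, beside 4.74% of all genes, 4 of 9 glycerol genes passed, of which GK (1.32, adjusted p = 0.0423) and PLIN2 (0.95, adjusted p = 0.0137) rose and GPD1 (-2.26, adjusted p = 0.0297) and the lipase LIPE (-1.61, adjusted p = 0.0233) fell. In that fit AKR1B1 rose (1.18, adjusted p = 0.0388), DMD (-1.15, adjusted p = 0.0447) and RAB11FIP2 (-0.77, adjusted p = 0.0481) fell, and 0 genes of the peroxide and ion transport lists passed.

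The other aquaporins in the table were rare. AQP10 had 131 counts over the 12 libraries and log2 fold changes of 0.12, 0.12, and -0.01 in TL3h, TL3d, and TL14d (adjusted p = 0.891, 0.897, and 0.995), and 0.15 at 14 days without TL14d replicate 1 (adjusted p = 0.923). MIP, the lens aquaporin, had 40 counts in all, AQP8 had 17, and AQP6 had 11, and none of these 3 passed the filter. A gene annotated as aquaporin-12-like had 0 counts in all 12 libraries.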

How the data were processed

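RNA of 12 conjunctival libraries was analysed, 3 each in the control, TL3h, TL3d, and TL14d groups, which were taken from the sample labels. For the deposited tables, the authors aligned read pairs of 150 bases against OryCun2.0 by STAR (2.6.0c, per the submitters' processing notes) and made values per gene and transcript with GeneData Profiler Genome. The authors deposited estimated counts, not divided by library size, of which 23.4% were fractions, and FPKM values, divided by transcript length and depth. Gene names and positions are those of the deposited gene table. A reference table of another rabbit assembly was not used, and no sequence is printed. Columns of per-sample values left unused numbered 0.

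Estimated counts were rounded. The plan was written for counts or rounded estimated counts, and its test was kept. Low counts were removed with filterByExpr (count 10, total 15), which kept 14835 of 20566 genes and 26082 of 38710 transcripts. All 12 libraries entered 1 quasi-likelihood fit (edgeR 4.0.16, R 4.3.3, TMM, no covariates) with 5 comparisons. Adjusted p-values are Benjamini-Hochberg values over all genes or all transcripts tested, called at 0.05. The prior count behind log2 fold changes was 0.125, and each standard error is the fold change divided by the root of its F statistic. Group levels are mean CPM ± SD on the TMM scale. Likeness between genes was Pearson's r of log2(CPM + 0.5) over the 12 libraries, among genes averaging 1 CPM or more. Alternatives were DESeq2 1.42.0 size factors, its Wald test, library size only, limma-trend (limma 3.58.1, pseudocount 0.5), no filter, only the 6 libraries compared, the replicate number as a block, and leaving out each library. Leaving out libraries for the lists, the median of the members, the transcripts, and AQP10 was added after the data were seen. The fits were tested on simulated data. No pair of libraries of a group was a copy of another (the squared difference of counts over its counting variance was at least 67.8). No sequencing batch is given in the labels.

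The text names the 7 members, the other aquaporins of the table, the 3 genes most like each member, and from each of 5 pathway lists up to 3 genes per direction with the largest change among those past the threshold. PAX6, the goblet cell markers, MMP9, S100A12, CD68, MSR1, DUOX2, GK, LIPE, and CFTR were named outside this rule after their values were seen, and 1 gene that the rule selects is not reported here. The members and lists were chosen with earlier results of these data known, so counts over them are descriptions. Marker lists of 12 cell types are given as values beside the results. The sums of markers are sums of CPM over the markers in the table.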

Additional observations from a re-analysis of the deposited data

How the results depend on the processing

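Of the alternatives for the log2 fold changes of single aquaporins, 624 kept direction and side of the threshold, 18 uncalled values changed sign and stayed uncalled, 8 moved past the threshold, and 10 fell short of it. No called value changed sign. The 10 were AQP5 at 3 hours and AQP9 at 3 days with a library left out. Numbers of aquaporins called ranged over the leave-one-out fits from 1 to 3 at 3 hours (2 in the main analysis, 3 without TL3h replicate 1), 0 to 1 at 3 days (1), and 0 to 1 between 3 hours and 3 days (0). The count between 3 hours and 3 days was 1 (AQP1) with the replicate block, limma-trend, and the DESeq2 Wald test, and that between 3 days and 14 days was 1 (AQP9) with DESeq2 against 0. Without a filter, 2 aquaporin transcripts were called at 3 hours and 0 at 3 days, against 1 each. Over all genes, 6733 were called at 3 hours, where no alternative moved the count by over 1.5 times. At 3 days 2608 were called, with 4471 by DESeq2 and 359 to 3778 with a library left out. At 14 days 0 were called, with 367 by DESeq2 and 0 to 716 with a library left out, the 716 without TL14d replicate 1. Between 3 days and 14 days 332 were called, with 592 by limma-trend, 15 in the 6 libraries compared, 1850 by DESeq2, and 0 to 584 with a library left out. The cause of these shifts was not tested. With library size only, the median of all genes from 3 hours to 3 days was 0.43 and 80.5% of the calls were higher, against -0.05 and 49.2%. The log2 ratio of mean AQP1 levels at 3 hours was 0.80 on the FPKM scale against 1.25, that of AQP9 4.62 and that of AQP11 -1.24, and all 3 kept their direction. The log2 fold change of AQP9 was 2.40 at 3 hours and 2.57 at 3 days with limma-trend, against 5.04 and 5.49.

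The replicate numbers were not shown to pair the samples. Correlations of the deviations of same-numbered libraries were 0.287, -0.149, and -0.144 for TL3h and control, 0.517, -0.136, and 0.354 for TL3d and control, and 0.242, 0.0112, and 0.429 for TL14d and control. With the replicate block, 6946, 2719, and 0 genes were called in TL3h, TL3d, and TL14d, 5831 between 3 hours and 3 days, and 288 between 3 days and 14 days. AQP1 then passed at 3 hours (log2 fold change 1.67, adjusted p = 0.047) and between 3 hours and 3 days (-2.40, adjusted p = 0.0159), so that 3 aquaporins were called at 3 hours, and no other aquaporin call changed. AQP7 and AQP9 had single-digit counts in the controls, and each group held 3 libraries.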
